A study of Homo sapiens with 6 samples.

Results

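The cytosolic and mitochondrial chaperones are proteins that fold, refold and hold other proteins outside the endoplasmic reticulum. They were followed here at the mRNA level as 38 genes listed by symbol, of 63140 genes in the deposited count table. The list holds the heat shock factors, the HSP70, HSP90, HSP40 and small heat shock protein families, the co-chaperones of HSP70 and HSP90, the mitochondrial chaperones and the 8 subunits of the CCT ring. The rule that picks them matches symbols and uses no measured value. Every symbol matched 1 gene of the table, and 37 of the 38 genes had enough reads to be tested. The gene left out of the test was HSPB1.

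The libraries came from HEK293, an established human cell line of embryonic kidney origin. The treated group was given GSK-A1 at 100 nM for 24 h at confluence, and the control group was labelled DMSO, the solvent. GSK-A1 blocks the lipid kinase encoded by PI4KA, the source of phosphatidylinositol 4-phosphate in the plasma membrane. Each group had 3 libraries of total RNA, titled as biological replicates of 1 unmodified cell line, with 1 dose and 1 time point. The comparison asked how the RNA levels of the cells differ when the kinase is inhibited.

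Chaperones are made at a high level in growing cells, and the heat-inducible ones are made in larger amounts when unfolded proteins build up. HSF1, the main transcription factor of the heat shock response, then binds heat shock elements in the promoters of HSP70, HSP90 and HSP40 genes. HSP70 with an HSP40 partner takes up unfolded chains, HSP90 completes the maturation of kinases and receptors, and the CCT ring folds actin and tubulin. HSPD1 and HSPE1 form the corresponding folding chamber of mitochondria.

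The promoters were searched for the heat shock element, because this is the sequence through which HSF1 acts on its targets. RefSeq promoter windows of build GRCh38.p14, each covering 250 bases before to 50 bases after a transcript start, were matched by symbol for 33 of the 38 members. The genes without a window were HSF1, HSPB11, STUB1, FKBP4 and CCT6A. The motif searched was 3 alternating units of GAA and its reverse complement TTC, with any 2 bases between neighbours, starting with either unit, which covers both strands. It was found in 7 of the 33 members (21.2%) and in 166 of the 27305 genes with a window (0.608%). The matches are shown in capitals with their flanks, 5′ to 3′ on the strand of the gene, and overlapping matches run together in 1 block.
HSPA8, chr11:123062346-123062374, minus strand: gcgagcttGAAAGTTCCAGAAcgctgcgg
HSPA8, chr11:123062171-123062199, minus strand: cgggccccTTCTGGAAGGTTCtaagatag
HSP90AA1, chr14:102087112-102087140, minus strand: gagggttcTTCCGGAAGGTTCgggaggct
HSP90AB1, chr6:44247770-44247798, plus strand: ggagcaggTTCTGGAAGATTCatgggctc
HSP90AB1, chr6:44247823-44247851, plus strand: tgagattgTTCTGGAAGCTTCtggattct
DNAJA1, chr9:33025268-33025296, plus strand: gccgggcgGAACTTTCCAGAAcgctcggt
DNAJB6, chr7:157336865-157336893, plus strand: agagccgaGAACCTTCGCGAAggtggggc
HSPD1, chr2:197500062-197500090, minus strand: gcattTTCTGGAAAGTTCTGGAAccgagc
CHORDC1, chr11:90223084-90223112, minus strand: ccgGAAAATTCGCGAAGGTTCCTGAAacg

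HSPA8 and HSP90AB1 each carried the element at separate places in 1 window, while in HSPD1 and CHORDC1 the units continued past the third into longer arrays. The DNAJA1 match lay 4 to 16 bases after its transcript start, and the others lay before theirs. The stretches shown for HSPA8, HSP90AA1, DNAJA1, HSPD1 and CHORDC1 lay wholly in annotated exons of their own gene. The HSPD1 match preceded the start at position 197499840 but lay downstream of another HSPD1 start at 197500274. A looser search for adjacent units, GAANNTTC or TTCNNGAA, was added after the results were seen, and every match of the longer motif contains a match of this one. It matched 19 of the 33 members (57.6%), among them HSPA1A, HSPA1B, DNAJB1, BAG2 and CCT4, and 4417 of all 27305 genes (16.2%). A match describes letters in these windows and does not show that a factor binds there.

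Total counts ran from 33040178 to 47777233 per library. Levels are given as CPM, the counts per 1000000 reads of the library total after adjustment by library factors. GSK-A1 replicate 2 stood apart. It had the highest CPM of the 6 libraries for 19 of the 37 tested members, 6 of the 8 CCT genes among them. Its chi-square per gene against the other treated libraries was 10.98 and 15.52, whereas the other pairs within a group ran from 1.84 to 3.14. The cell line's labels were checked against marker genes, and NEFL (715 CPM in DMSO), VIM (1084), KRT8 (147), KRT18 (110) and LIN28B (110) were present, EYA1 (9.28) and PAX2 (2.71) were low, and NEFM (0.142) and INA (0.00695) were near 0. The leukocyte markers PTPRC, CD74 and LAPTM5 and the endothelial markers PECAM1, CDH5 and VWF did not exceed a mean of 0.19 CPM in either group. Of the 5 fibroblast markers, COL1A1 was at 6.81 CPM in DMSO and 6.11 CPM with GSK-A1, COL1A2 was at 0 in every library, and DCN, LUM and PDGFRB had means of at most 0.217 CPM. PI4KA mRNA differed by -0.04 ± 0.04 on the log2 scale between groups (edgeR adjusted p = 0.456), which does not measure inhibition of the enzyme.

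Levels differed widely between the members in DMSO. RPKM, the CPM divided by the exon length in kilobases, allow only a rough ranking of genes against each other. The length covers all annotated exons of a gene, used in these cells or not, and reads lost to shared sequence were not corrected for. The highest members were the HSP90 genes HSP90AB1 (499 RPKM) and HSP90AA1 (388 RPKM), the constitutive HSP70 gene HSPA8 (282 RPKM) and the mitochondrial chaperonin HSPD1 (258 RPKM). PTGES3, the HSP90 co-chaperone p23, followed at 206 RPKM, and the 8 CCT genes lay between 86.9 RPKM for CCT2 and 204 RPKM for CCT4. At the other end stood BAG1 (4.35 RPKM), DNAJB4 (3.81 RPKM), HSPA1A (0.124 RPKM) and HSPB1 (0.0217 RPKM).

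**Figure D1:**
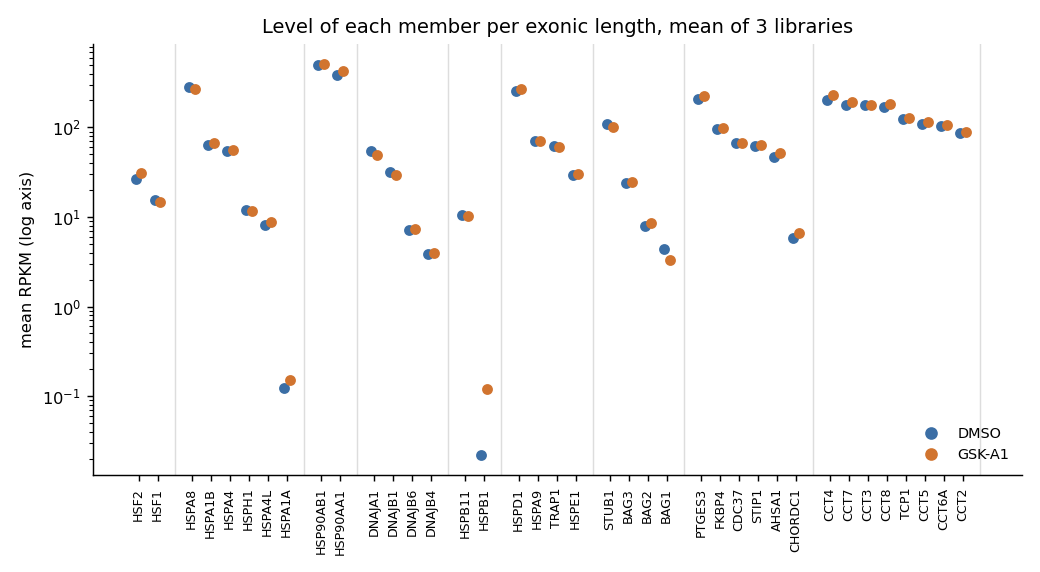
Mean level of each of the 38 members in RPKM on a log axis, for the DMSO (blue) and GSK-A1 (orange) libraries (n = 3 each), grouped by role. HSP90AB1 at 499 RPKM and HSP90AA1 at 388 RPKM lie at the top, and HSPA1A and HSPB1 lie below 0.2 RPKM.

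The chaperone genes moved little, and in both directions. With GSK-A1, HSF2, HSP90AA1, BAG2, AHSA1, CHORDC1, CCT4, CCT7 and CCT8 rose and BAG1, DNAJB1 and STUB1 fell, at an edgeR adjusted p under 0.05 taken over all 16754 genes tested. That is 11 of 37 tested members called (29.7%), 8 higher and 3 lower, where 22.9% of all genes tested were called, 12% higher and 10.9% lower. The median log2 change was 0.05 over the tested members and -0.01 over all genes tested. The called members had a median absolute log2 change of 0.14, against 0.24 for all called genes, and the largest of them was 0.38, for BAG1. The groups did not overlap for 14 of the 37 tested members, 10 of them higher and 4 lower with GSK-A1. Of all genes tested, 40.5% had groups that did not overlap, 20.2% higher and 20.4% lower.

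Among the library factors tried, upper-quartile factors changed the count of members in each direction most. With RLE factors 9 of the called members kept their call, DNAJB1 and STUB1 being lost. With library totals only, 10 kept it, BAG2 being lost. With upper-quartile factors in place of the trimmed mean of M values, 2 members were called higher and 5 lower, and over all genes the split moved from 2007 higher and 1828 lower to 1339 higher and 2688 lower. HSF2, BAG1 and CCT4 were called in all 16 alternative settings, the omission of each library included. The other 8 called members each lost the call in at least 1 setting, and none changed sign. Because RNA was taken from whole cultures, fewer cells of a kind and less RNA per cell cannot be told apart. The p-values rest on the spread between these 3 libraries per group, with the variance of each gene drawn toward the trend over all genes. Nothing beyond the titles of the libraries says that they came from separate cultures.

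**Figure D2:**
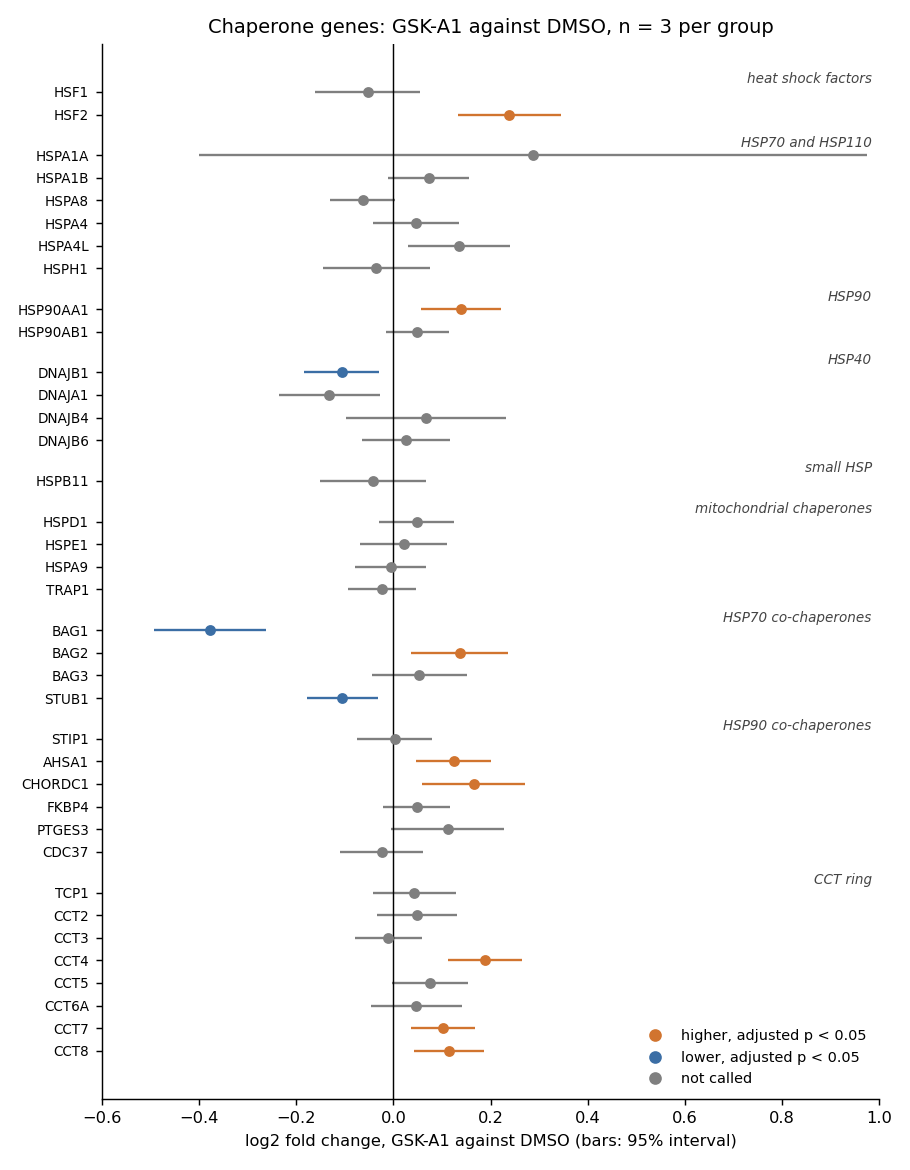
Log2 fold change of each tested member, GSK-A1 against DMSO, with its 95% interval from edgeR (3 libraries per group), grouped by role. Called members are coloured by direction, and every change lies within 0.4 of zero, BAG1 (-0.38) being the farthest.

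Of the heat shock factors, HSF2 rose and HSF1 was not called. HSF2 (chr6:122399546-122433119, GENCODE 29 on GRCh38) encodes a factor that works with HSF1 and is also active in development. Its level was 70.8, 73.8 and 68.2 CPM in the DMSO libraries and 79.2, 90.3 and 81.9 CPM in the GSK-A1 libraries. All treated libraries were above all controls, with GSK-A1 replicate 2 the highest. The mean went from 70.9 ± 2.8 to 83.8 ± 5.8 CPM (SD, n = 3 each), a log2 change of 0.24 ± 0.05 (SE; edgeR adjusted p = 0.00299). HSF1 stood at 82.1, 83.5 and 77.6 CPM in DMSO and 79.6, 71.8 and 83.1 CPM with GSK-A1. The groups overlapped, and the log2 difference of -0.05 ± 0.05 (edgeR adjusted p = 0.494) had a 95% interval of -0.16 to 0.06.

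None of the 6 HSP70 and HSP110 genes was called by edgeR, DESeq2 or limma-voom, and 1 of them, HSPA4L, had an unadjusted edgeR p under 0.05. HSPA1A and HSPA1B encode almost the same heat-inducible HSP70 protein. Of the exonic 50-base stretches, 72.6% of those of HSPA1A and 73.5% of those of HSPA1B also occur in other genes. Reads from the shared stretches may therefore be missing from either count or placed in the other gene, which was not tested. Of the exons of HSPA1B, 36.5% also overlap AL671762.1 on the same strand, so its count may miss reads. HSPA1B was at 166, 158 and 155 CPM in DMSO and 168, 174 and 163 CPM with GSK-A1. HSPA1A had only 13, 16 and 10 reads in DMSO and 16, 9 and 19 reads with GSK-A1. Neither set of treated libraries was clear of its controls. The log2 difference was 0.07 ± 0.04 for HSPA1B (edgeR adjusted p = 0.199) with a 95% interval of -0.01 to 0.16, whereas for HSPA1A it was 0.29 ± 0.33 (edgeR adjusted p = 0.561) with a 95% interval of -0.40 to 0.98, and 0.01 without GSK-A1 replicate 3.

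HSPA8, the constitutive HSP70 that serves most folding in unstressed cells, was at 1403, 1348 and 1350 CPM in DMSO and 1298, 1347 and 1280 CPM with GSK-A1. All treated libraries were below all controls, although replicate 2 of both groups was almost level. The log2 difference of -0.06 ± 0.03 did not pass the test (edgeR adjusted p = 0.161), and it was called lower in 3 of 16 settings, which were the omission of GSK-A1 replicate 2 (-0.08), upper-quartile factors (-0.10) and limma-voom with library weights (-0.07). The HSP110 nucleotide exchange factors HSPA4, HSPA4L and HSPH1 release substrates from HSP70. HSPA4 was at 287, 271 and 278 CPM in DMSO and 277, 307 and 279 CPM with GSK-A1. HSPH1 was at 108, 94.8 and 102 CPM in DMSO and 99.5, 105 and 92.9 CPM with GSK-A1. Both overlapped between groups. HSPA4L was above its controls in every treated library (93.1 to 95 CPM against 97.4 to 113 CPM), with a log2 difference of 0.14 ± 0.05 (edgeR adjusted p = 0.0589). It was called in 4 of 16 settings, and the difference was 0.07 without GSK-A1 replicate 2 (edgeR adjusted p = 0.0835), 0.18 without GSK-A1 replicate 3 (edgeR adjusted p = 0.0155) and 0.08 after GC correction (edgeR adjusted p = 0.103).

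Of the HSP90 genes, the heat-inducible HSP90AA1 rose and the constitutive HSP90AB1 was not called. HSP90AA1 (chr14:102080738-102139699) was at 2071, 2010 and 2022 CPM in DMSO and 2202, 2399 and 2120 CPM with GSK-A1, with no overlap. The mean went from 2034 ± 33 to 2240 ± 144 CPM (SD, n = 3 each), a log2 change of 0.14 ± 0.04 (edgeR adjusted p = 0.0178). The call was lost with upper-quartile factors (log2 change 0.10, edgeR adjusted p = 0.0596) and on leaving out any DMSO library (log2 change 0.13 to 0.15, edgeR adjusted p 0.0506 to 0.0859). Without GSK-A1 replicate 2 the change was 0.09 and still called (edgeR adjusted p = 0.005535). HSP90AB1 was at 1521, 1449 and 1491 CPM in DMSO and 1535, 1574 and 1507 CPM with GSK-A1. Its treated and control libraries overlapped, and the log2 difference was 0.05 ± 0.03 (edgeR adjusted p = 0.267). Of the exonic 50-base stretches, 17.5% of those of HSP90AA1 and 18.8% of those of HSP90AB1 also occur in other genes, mainly the pseudogenes HSP90AA2P and HSP90AB3P.

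**Figure D3:**
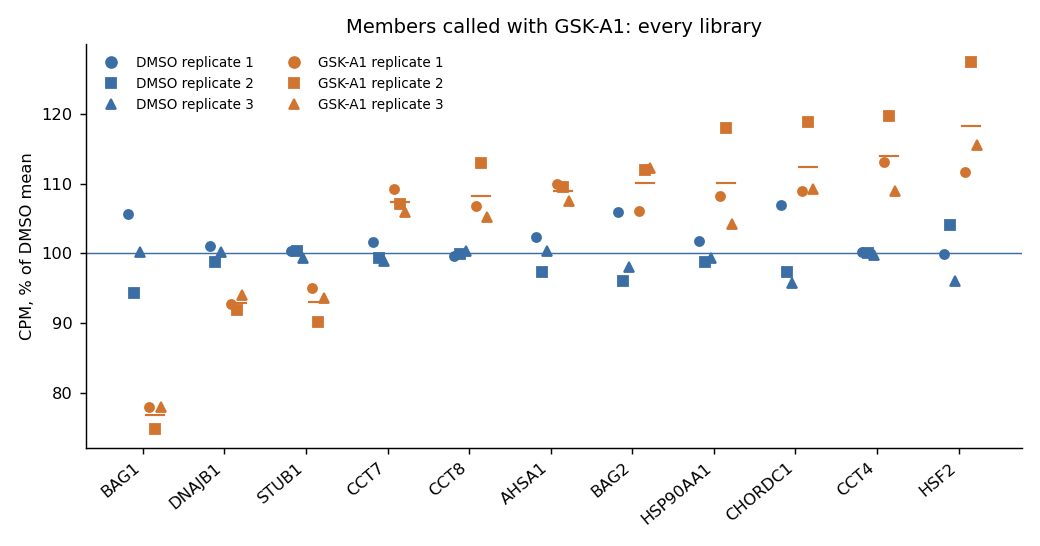
CPM of the 11 called members in each of the 6 libraries as a percent of the DMSO mean of the gene, with a line at 100% for DMSO and a short bar at the GSK-A1 mean. For every gene the GSK-A1 points lie on 1 side of the DMSO points, and GSK-A1 replicate 2 is the highest point for HSF2, HSP90AA1, CHORDC1, CCT4 and CCT8.

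Among the HSP90 co-chaperones, AHSA1 and CHORDC1 rose and the other 4 were not called. AHSA1, which stimulates the ATPase of HSP90 (chr14:77457870-77469474), was at 142, 135 and 139 CPM in DMSO and 152, 152 and 149 CPM with GSK-A1. Treated libraries were all above controls, and the log2 change was 0.12 ± 0.04 (edgeR adjusted p = 0.0221). CHORDC1, an HSP90-binding protein also called morgana (chr11:90201160-90223364), was at 67.0, 61.0 and 60.0 CPM in DMSO and 68.3, 74.4 and 68.5 CPM with GSK-A1. DMSO replicate 1 nearly reached the treated libraries, and the log2 change was 0.16 ± 0.05 (edgeR adjusted p = 0.0260). With upper-quartile factors both calls were lost (edgeR adjusted p = 0.0994 for AHSA1 and 0.0693 for CHORDC1), and the call of CHORDC1 was also lost when the trend with GC content was removed (0.09, edgeR adjusted p = 0.115). AHSA1 lost its call without DMSO replicate 2 or 3 or GSK-A1 replicate 1 (edgeR adjusted p 0.0737 to 0.127), and CHORDC1 without DMSO replicate 2 or 3 (0.134 and 0.141).

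PTGES3, which binds the closed, ATP-bound form of HSP90, had a log2 difference of 0.11 ± 0.05 (edgeR adjusted p = 0.156). Its GSK-A1 replicate 2 lay at 834 CPM, far above the remaining libraries at 694 to 728 CPM. Without that library the difference was 0.04 (edgeR adjusted p = 0.306), and without GSK-A1 replicate 3 it was 0.16 and called (edgeR adjusted p = 0.0179). The values for FKBP4, an immunophilin of steroid receptor complexes, CDC37, which brings kinases to HSP90, and STIP1, which bridges HSP70 and HSP90, were 0.05, -0.02 and 0.00. Their edgeR adjusted p ran from 0.319 to 0.968.

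The HSP40 genes encode the J-domain partners that deliver substrates to HSP70, and 1 of 4, DNAJB1, fell. DNAJB1, the main heat-inducible partner (chr19:14514770-14529770), was at 117, 114 and 116 CPM in DMSO and 107, 106 and 108 CPM with GSK-A1. The replicates were tight and the groups were apart, with means of 115 ± 1.4 and 107 ± 1.2 CPM (SD, n = 3 each) and a log2 change of -0.11 ± 0.04 (edgeR adjusted p = 0.0449). The call was held in 7 of 16 settings. It was lost in DESeq2 (adjusted p = 0.0821), with RLE factors (edgeR adjusted p = 0.0616), with no filter on low counts (0.144), after GC correction (-0.05, edgeR adjusted p = 0.241), and without any DMSO library or GSK-A1 replicate 1 or 3 (0.0708 to 0.151).

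DNAJA1, a farnesylated partner of HSPA8, was at 154, 142 and 147 CPM in DMSO and 134, 145 and 126 CPM with GSK-A1. The overlap came from GSK-A1 replicate 2. The log2 difference was -0.13 ± 0.05 (edgeR adjusted p = 0.0626), and without that library it was -0.18 (edgeR adjusted p = 3.35e-05). DNAJA1 was called lower in 7 of 16 settings, as many as DNAJB1, among them upper-quartile factors (-0.17, edgeR adjusted p = 0.0126) and GC correction (-0.15, edgeR adjusted p = 0.00842). Without GSK-A1 replicate 3 the difference was -0.08 (edgeR adjusted p = 0.232). DNAJB6, which keeps polyglutamine proteins from aggregating, was at 109, 106 and 109 CPM in DMSO and 105, 116 and 109 CPM with GSK-A1. It differed by 0.03 ± 0.04 (edgeR adjusted p = 0.708), and DNAJB4 by 0.07 ± 0.08 (edgeR adjusted p = 0.570).

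The small heat shock protein HSPB1, known as HSP27 and abundant in many epithelial lines, had very few reads in these libraries. It had 3, 2 and 0 reads in DMSO and 9, 4 and 10 reads with GSK-A1, or 5 against 23 reads in all. It was left out of the test by the filter on low counts. The ratio of the totals, scaled for depth, was 4.96 with a 95% interval of 1.84 to 16.7, which covers counting error only. With no filter the log2 change was 2.24 ± 0.66 (edgeR adjusted p = 0.00734), and every library stayed under 0.3 CPM. HSPB11, which despite its symbol is a subunit of the intraflagellar transport machinery, was at 33.2 to 34.9 CPM in DMSO and 30.9 to 34.0 CPM with GSK-A1, a log2 difference of -0.04 ± 0.05 (edgeR adjusted p = 0.599).

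None of the 4 mitochondrial chaperone genes was called by edgeR, DESeq2 or limma-voom, and none had an unadjusted edgeR p under 0.05. HSPD1 and HSPE1, the chaperonin and its lid, share a promoter on chromosome 2, where their nearest RefSeq starts lie 105 bases apart on opposite strands. HSPD1 was at 1102, 1086 and 1094 CPM in DMSO and 1105, 1203 and 1085 CPM with GSK-A1. HSPE1 was at 60.5, 58.5 and 56.5 CPM in DMSO and 60.0, 58.6 and 59.7 CPM with GSK-A1. Both overlapped between groups, with log2 differences of 0.05 ± 0.04 (edgeR adjusted p = 0.377) and 0.02 ± 0.04 (edgeR adjusted p = 0.755). HSPA9, the mitochondrial HSP70, differed by -0.01 ± 0.03 and TRAP1, the mitochondrial HSP90, by -0.02 ± 0.03 (edgeR adjusted p = 0.936 and 0.665). Because 24.8% of the exonic 50-base stretches of HSPD1 and 27.2% of those of HSPE1 also occur in other genes, the counts of both may miss reads.

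The co-chaperones of HSP70 moved in opposite directions, with BAG1 and STUB1 lower and BAG2 higher. BAG1, a nucleotide exchange factor that links HSP70 to the proteasome (chr9:33247820-33264720), was at 32.5, 29 and 30.8 CPM in DMSO and 24.0, 23.0 and 24.0 CPM with GSK-A1. Every treated library was well below every control. The mean fell from 30.8 ± 1.7 to 23.7 ± 0.56 CPM (SD, n = 3 each), a log2 change of -0.38 ± 0.05 (edgeR adjusted p = 0.000158) and the largest called change among the members. Across the 16 settings it ran from -0.42 to -0.34. BAG3, the stress-inducible member that feeds aggregates to autophagy, was at 68.6, 63.5 and 64.0 CPM in DMSO and 66.9, 65.5 and 71.2 CPM with GSK-A1. It overlapped between groups, with a log2 difference of 0.05 ± 0.05 (edgeR adjusted p = 0.436), and it was called higher after GC correction (0.13, edgeR adjusted p = 0.0225).

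BAG2, an inhibitor of the ubiquitin ligase CHIP (chr6:57172326-57189833), was at 55.3, 50.2 and 51.2 CPM in DMSO and 55.4, 58.4 and 58.6 CPM with GSK-A1. DMSO replicate 1 and GSK-A1 replicate 1 were almost level. The log2 change was 0.14 ± 0.05 (edgeR adjusted p = 0.0477). STUB1, which encodes CHIP itself (chr16:680224-682870), was at 251, 251 and 249 CPM in DMSO and 238, 226 and 235 CPM with GSK-A1, with no overlap and a log2 change of -0.10 ± 0.03 (edgeR adjusted p = 0.0383). Each of these calls was held in 7 of 16 settings. DESeq2 called neither gene (adjusted p = 0.0564 and 0.0579), and after GC correction the change was 0.07 for BAG2 (edgeR adjusted p = 0.240) and -0.01 for STUB1 (edgeR adjusted p = 0.886). Leaving out DMSO replicate 2 or 3 or GSK-A1 replicate 1 or 3 ended the call of BAG2 (edgeR adjusted p 0.0508 to 0.219), and leaving out any library but GSK-A1 replicate 2 ended that of STUB1 (0.0691 to 0.123). Of the exons of STUB1, 42.4% overlap JMJD8 on the opposite strand, and of those of BAG2, 42.7% overlap RAB23. The same holds for 30.1% of those of CCT5 (AC012640.4) and 29.3% of those of TRAP1 (DNASE1). The strand setting of the counting is not given in the sources used here, so reads of these partners may be mixed.

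The CCT ring is built of 8 different subunits in equal number, and 3 of its genes were called higher and 0 lower. Of all genes tested, 12% were called higher and 10.9% lower, so for 8 genes these counts are a description only. CCT4 (chr2:61868089-61888804) was at 580, 579 and 577 CPM in DMSO and 655, 692 and 631 CPM with GSK-A1. The controls were nearly identical and all treated libraries were above them. The mean rose from 579 ± 1.5 to 659 ± 31 CPM (SD, n = 3 each), a log2 change of 0.19 ± 0.04 (edgeR adjusted p = 0.00149). CCT7 (chr2:73233420-73253021) was at 657, 642 and 640 CPM in DMSO and 705, 692 and 685 CPM with GSK-A1. CCT8 (chr21:29055805-29073797) was at 559, 561 and 563 CPM in DMSO and 599, 633 and 590 CPM with GSK-A1. Neither overlapped, and the log2 changes were 0.10 ± 0.03 for CCT7 (edgeR adjusted p = 0.0253) and 0.11 ± 0.03 for CCT8 (edgeR adjusted p = 0.0231). Both calls were lost with upper-quartile factors (edgeR adjusted p = 0.151 and 0.110) and on leaving out any DMSO library (0.0542 to 0.123), and that of CCT7 also without GSK-A1 replicate 1 (0.0907). Over the 16 settings the log2 change ran from 0.06 to 0.15 for CCT7 and from 0.07 to 0.14 for CCT8. Calls over all genes also fell without a DMSO library, from 22.9% of those tested to between 12.7% and 13.2%.

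The remaining subunits TCP1, CCT2, CCT3, CCT5 and CCT6A were not called. Their log2 differences lay between -0.01 for CCT3 and 0.08 for CCT5, with edgeR adjusted p from 0.151 to 0.855. CCT5 alone of these had no overlap between groups. The median log2 change over the 8 subunits was 0.06, and their summed level was 4529 ± 62 CPM in DMSO and 4779 ± 183 CPM with GSK-A1 (SD, n = 3 each), with GSK-A1 replicate 2 the highest for 6 of the 8 genes.

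Ratios within a library do not depend on the library factors, so they were used to ask whether related members moved unequally. For 6 ratios the exact two-sided permutation test over 3 against 3 libraries cannot go below 0.1, and after Benjamini-Hochberg adjustment over the 6 none was under 0.15. The log2 ratio of BAG3 to BAG1 went from 1.09 to 1.52, a difference of 0.43 with no overlap (exact p = 0.1). The ratio of HSP90AA1 to HSP90AB1 went from 0.45 to 0.54, that of HSPA1A plus HSPA1B to HSPA8 from -3.10 to -2.96, and that of DNAJB1 to DNAJB6 from 0.10 to -0.04 (exact p = 0.1 each). In these 4 ratios the groups were fully apart. Without GSK-A1 replicate 2 the difference fell in size from 0.09 to 0.05 for HSP90AA1 to HSP90AB1, and went from -0.13 to -0.08 for DNAJB1 to DNAJB6. By group means, the inducible partner stood higher relative to the other with GSK-A1 in the HSP90 and HSP70 pairs and for BAG3 to BAG1. In the BAG pair, BAG1 fell and BAG3 was not called. The inducible partner stood lower in the HSP40 pair and for HSPH1 to HSPA4. With a lowest possible p of 0.1, the permutation test could call none of these directions. The ratio of HSPH1 to HSPA4 differed by -0.08 (exact p = 0.2) and that of HSPD1 to HSPE1 by 0.02 (exact p = 0.9).

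**Figure D4:**
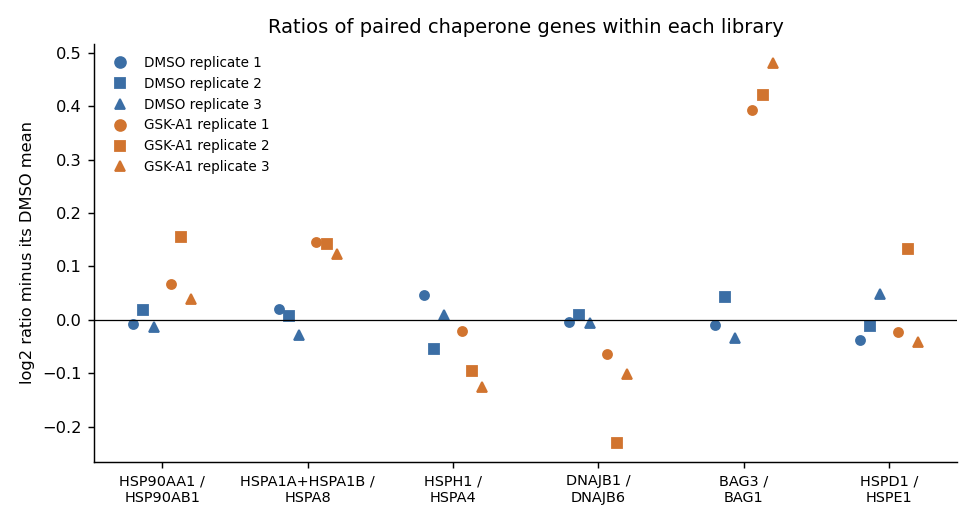
Within-library log2 ratio of CPM for 6 pairs of members, drawn as the distance of each library from the DMSO mean of that ratio. The GSK-A1 points of BAG3 to BAG1 lie about 0.43 above the DMSO mean, and those of HSPD1 to HSPE1 scatter around it.

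Of the 7 members that carry the 3-unit heat shock element in their promoter window, HSP90AA1 (0.14) and CHORDC1 (0.16) were called higher, 0 were called lower, and the other 5 were not called. Of all genes tested 22.9% were called, so these counts are no result about the carriers of the element. The 5 not called had log2 differences of -0.13 for DNAJA1, -0.06 for HSPA8, 0.03 for DNAJB6, 0.05 for HSP90AB1 and 0.05 for HSPD1. Of the 19 members with the looser motif, 18 were tested, 4 were called higher and 1, DNAJB1, lower. HSF2, BAG1 and CCT4, called in every setting, were not among those with the 3-unit match.

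Other chaperone and heat shock genes were read from the same fit for comparison, from lists drawn by function. The counts called in each list stand against 12% of all genes tested called higher and 10.9% called lower, and with 8 to 16 tested genes a list they are given as descriptions. Of 16 tested genes among the other HSP70, HSP40 and small heat shock genes, 4 were higher and 2 lower. HSPB8, the small heat shock protein that works with BAG3, rose from 1.07 ± 0.20 to 1.93 ± 0.32 CPM (SD, n = 3 each), a log2 change of 0.87 ± 0.18 (edgeR adjusted p = 0.00278). DNAJB5 rose by 0.42 ± 0.10 (edgeR adjusted p = 0.00623; 0.0536 without DMSO replicate 1) and DNAJB14, an HSP40 anchored in the endoplasmic reticulum membrane, by 0.24 ± 0.05 (edgeR adjusted p = 0.00394). Of 16 other co-chaperones, 1 was higher and 2 lower. BAG5, a further HSP70 exchange factor, rose by 0.19 ± 0.04 (edgeR adjusted p = 0.00540), while FKBP8, a mitochondrial immunophilin, had a log2 change of -0.20 ± 0.04 (edgeR adjusted p = 0.00128), or -0.10 after GC correction (edgeR adjusted p = 0.0381). HSPBP1, which like BAG1 releases nucleotide from HSP70, had -0.16 ± 0.05 (edgeR adjusted p = 0.0221), or -0.06 after removal of the trend with GC (edgeR adjusted p = 0.314), and its call was lost without DMSO replicate 1 or 3 or GSK-A1 replicate 1.

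Of 15 genes of mitochondrial protein quality control, 3 were higher and 1 lower. PHB2, a prohibitin of the inner membrane, had a log2 change of -0.18 ± 0.03 (edgeR adjusted p = 0.000984), or -0.11 after GC correction (edgeR adjusted p = 0.0112). GRPEL2, an exchange factor of HSPA9, rose by 0.22 ± 0.04 (edgeR adjusted p = 0.00138), and the inner membrane protease YME1L1 by 0.16 ± 0.04 (edgeR adjusted p = 0.0156), a call lost without any 1 of the DMSO libraries (edgeR adjusted p 0.0581 to 0.0773), and 0.11 without GSK-A1 replicate 2. Of 10 genes of CCT helpers and of prefoldin, which passes actin and tubulin chains to the ring, 2 were higher and 0 lower. These were PFDN2 (0.18 ± 0.05, edgeR adjusted p = 0.0157) and PFDN1 (0.15 ± 0.04, edgeR adjusted p = 0.0165), and neither was called with upper-quartile factors (edgeR adjusted p = 0.0529 and 0.0634) or without DMSO replicate 2. The call of PFDN2 was also lost without DMSO replicate 3 or GSK-A1 replicate 1, and that of PFDN1 without DMSO replicate 1.

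Of 8 other genes of the HSF1 pathway, 4 were higher and 1 lower, with a median log2 change of 0.08. SERPINH1, the collagen chaperone HSP47 and an HSF1 target, fell from 33.9 ± 1.8 to 26.0 ± 1.6 CPM (SD, n = 3 each), a log2 change of -0.38 ± 0.06 (edgeR adjusted p = 0.000209). IER5, an immediate early gene whose product activates HSF1, rose by 0.18 ± 0.05 (edgeR adjusted p = 0.0115), a call lost without DMSO replicate 1 or 3 (0.0663 and 0.0803). The count of 4 higher genes fell to 2 with upper-quartile factors or without DMSO replicate 1 or 2, and to 1 without DMSO replicate 3.

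**Figure D5:**
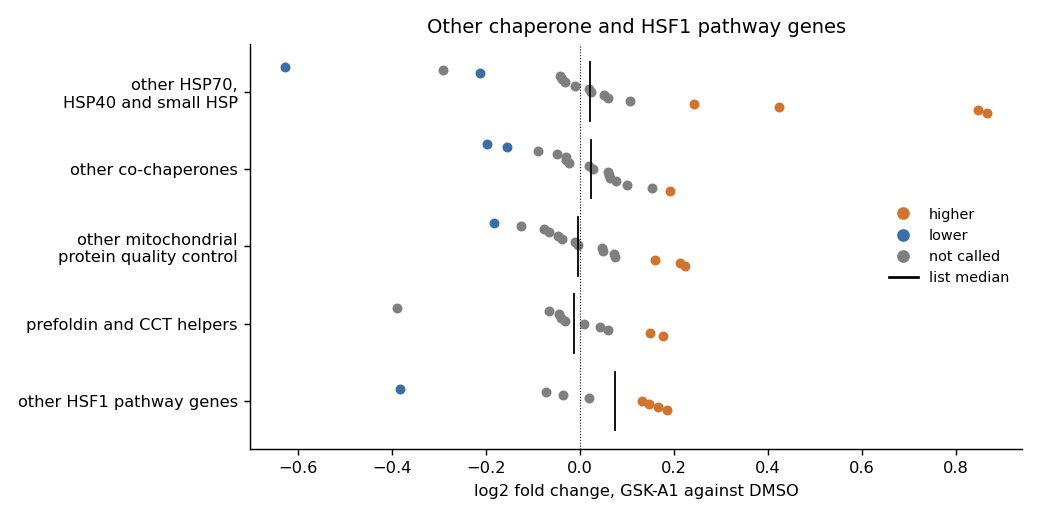
Log2 fold change, GSK-A1 against DMSO, of each tested gene in the 5 further lists, with called genes coloured by direction and a bar at each list's median. HSPB8 at 0.87 lies farthest to the right, and in the HSF1 pathway list SERPINH1 at -0.38 lies apart from 4 called genes above zero.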

How the data were processed

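Raw gene counts were deposited by the authors in 1 table with no normalization, 1 column per library. Per the submitters' processing notes, cutadapt 5.1, STAR 2.7.11b, Subread 2.1.1 with featureCounts, DESeq2 1.38.0 and build GRCh38.p13 were used. The strand setting and annotation release are not given in the sources used here. All 6 libraries carried the same lane label, and the kit is stranded per the labels' protocols.

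Genes were tested with edgeR 4.0.16 in R 4.3.3: filterByExpr (smallest count 10, smallest total 15), TMM factors, a robust quasi-likelihood F test and Benjamini-Hochberg adjustment over 16754 genes, called under 0.05. The scripts were tested on simulated data. CPM were scaled by TMM-adjusted totals. RPKM used exon lengths of GENCODE 29. Gene positions are from GENCODE 29 and promoter sequences from RefSeq. Alternatives used limma 3.58.1, DESeq2 1.42.0, other factors and filters, GC correction and omission of each library. The members and lists were chosen with earlier results of these data known. All members are accounted for, and of each further list up to 3 called genes with the smallest p are named, except 1 that is not reported here. Same-numbered libraries correlated only weakly in their deviations, and the labels name no shared culture, so the numbers were not used as a block.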

Additional observations from a re-analysis of the deposited data

How the results depend on the processing

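Against 8 members higher and 3 lower, upper-quartile factors gave 2 and 5, and an adjusted p under 0.01 gave 2 and 1. RLE factors gave 1 lower, DESeq2 gave 1 lower and limma-voom with library weights gave 5 lower. Omitting 1 library at a time gave 2 to 9 members higher and 1 to 5 lower. Without GSK-A1 replicate 2, 13 members were called, the 11 and also DNAJA1 and HSPA8. Without DMSO replicate 1 or GSK-A1 replicate 1, 6 of the 11 were called each. Without DMSO replicate 2 or 3 it was 3 each, and without GSK-A1 replicate 3, 8 of the 11 with HSPA4L and PTGES3 added. Calls over all genes moved too, from 22.9% of those tested to 12.9%, 13.2% and 12.7% without DMSO replicates 1, 2 and 3. They were 15.9%, 28.1% and 21.9% without GSK-A1 replicates 1, 2 and 3. With RLE factors they were 22.5%, in DESeq2 18.3% and in limma-voom with library weights 33.8%. The member counts therefore do not describe the members alone. Over all genes (2007 higher, 1828 lower) an adjusted p under 0.01 gave 1058 and 813, limma-voom with library weights gave 2826 lower, and omission of 1 library gave 1137 to 2640 higher and 1004 to 2250 lower. A stricter threshold gives fewer calls by construction, and for the rest the cause was not tested. The log2 ratio difference of HSPD1 to HSPE1 ran from -0.032 on omitting GSK-A1 replicate 2 to 0.056 on omitting GSK-A1 replicate 3. The replicate number as a block gave 13 called members, the 11 with HSPA4L and DNAJA1 added, and 4127 genes in all (24.6%). The labels do not say that a number marks a shared culture. The deviations of same-numbered libraries correlated at 0.011, 0.019 and 0.032, and those of other pairs at -0.033 to 0.012. Every library but GSK-A1 replicate 1 correlated best with its own number. GSK-A1 replicate 1 had 0.0117 with DMSO replicate 2 and 0.0109 with DMSO replicate 1. Such weak values cannot decide whether same-numbered libraries shared a culture. In the ratios, the block gave an exact sign-flip p of 0.25 at the lowest. HSPA1A and HSPB1 are limited by few reads, with at most 19 and 10 in any library. For HSPA1A, sequence shared with HSPA1B may have cost reads in the counting, which was not tested.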
